A study of Macaca mulatta with 30 samples.

Results

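A set of 8 regulators of the hepatocyte programme was followed across 5 tissues of the rhesus macaque (Macaca mulatta). They are the transcription factors HNF4A, FOXA1, FOXA2, FOXA3 and CEBPA and the nuclear receptors NR1H4, NR1I2 and NR1I3. The genes were chosen by name from the deposited abundance table, and all 8 were present among its 21292 gene names. The question was which of them liver and pancreas share. Liver, pancreas and the parotid, submandibular and sublingual salivary glands were sampled as biopsies from the same 6 animals, with 1 library per tissue and animal, so that each tissue had 6 libraries and the study 30. The labels list 4 females (numbers 1 to 4) and 2 males (numbers 5 and 6). The RNA was taken from sections of flash-frozen tissue, and the labels give no treatment and no age. For parotid, the name of animal 3's library carries an R where the others carry an L. Levels are in TPM, abundances that take transcript length into account and can be set beside each other between genes. Sequencing depth is unknown because every library sums to the same total.

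HNF4A is a nuclear receptor-type factor that occupies the promoters and enhancers of much of the hepatocyte programme, and it also acts in intestine, kidney and pancreatic islets. The 3 FOXA proteins are pioneer factors that open chromatin in tissues derived from the foregut endoderm, liver and pancreas among them, and CEBPA is a leucine zipper factor that drives metabolic genes in both hepatocytes and adipocytes. NR1H4 (FXR) is the receptor for bile acids, while NR1I2 (PXR) and NR1I3 (CAR) sense foreign and endogenous compounds and switch on the enzymes that clear them.

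The labelled tissues were checked against their markers. The median of 18 hepatocyte genes lay between 992 and 3420 TPM in the liver libraries and between 8.24 and 27.4 TPM in all other libraries. The median of 10 acinar enzyme genes lay between 13020 and 35610 TPM in 5 pancreas libraries but at only 339 TPM in animal 4, and the median of 8 salivary genes lay between 4868 and 8456 TPM in 5 submandibular libraries but at 90.4 TPM in that of animal 4. In these 2 libraries of animal 4 the median of 8 adipocyte genes was 834 and 687 TPM, against 0.65 to 68.0 TPM in the other 28. Several results that rest on them are given with and without them, and the others include them. The salivary median was lower in the parotid, 315 to 1621 TPM, and in the sublingual gland, 718 to 4551 TPM in 5 libraries and 414 TPM in that of animal 4. In this last library ZG16B was at 2016 TPM and MUC7 at 184 TPM, within their liver ranges. The other 5 sublingual libraries had 31360 to 332600 and 1401 to 27190 TPM. Its MUC5B, at 14.8 TPM, lay within their range of 0.128 to 65.4 TPM. The library was kept, also in the fits without the 2 libraries of animal 4. With animal 4 left out altogether 4 members were higher in pancreas than in the sublingual gland, as many as with it. Fewer cells of a type and less RNA per cell cannot be told apart in such tissue pieces.

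Of the FOXA genes, FOXA2 and FOXA3 gave the clearest case of expression in both liver and pancreas. FOXA2, which is needed for early endoderm and for islet and liver function, was at 28.6, 24.5, 47.2, 24.3, 14.8 and 20.5 TPM in the liver of animals 1 to 6. In pancreas it was at 14.9, 11.5, 28.1, 0.566, 18.1 and 8.26 TPM. The pancreas values overlapped the liver values, and the library of animal 4 alone fell to the level of the glands. In the 3 salivary glands FOXA2 lay between 0.0876 and 0.895 TPM in all 18 libraries. Animal 3 had the highest FOXA2 level of all animals in both liver and pancreas, and its pancreas library also had the highest insulin level (INS, 127200 TPM, the other 5 having 408 to 11440 TPM). A link between the FOXA2 and insulin levels was not tested.

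FOXA3, a FOXA gene linked to hepatic glucose metabolism, had the same layout. Its liver levels were 15.3, 21.8, 14.2, 9.51, 29.4 and 14.8 TPM. In pancreas they were 12.1, 10.5, 8.999, 0.223, 9.28 and 10.9 TPM. Without the library of animal 4 the pancreas values were tight, at 10.4 ± 1.25 TPM (SD, n = 5), and every animal had more FOXA3 in its liver than in its pancreas. The parotid and submandibular glands stayed below 0.5 TPM in all 12 libraries, and 1 sublingual library (animal 5) reached 3.45 TPM.

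FOXA1, which also acts in many glandular epithelia, was distributed differently. In liver it was at 21.0 ± 4.79 TPM (SD, n = 6), with a lowest value of 16.7, a median of 19.7 and a highest of 29.3 TPM. Pancreas held 1.58 ± 0.533 TPM, from 0.682 to 2.06 TPM, and did not overlap liver. The submandibular gland was at 1.71 ± 0.714 TPM and the sublingual gland at 4.27 ± 4.85 TPM, the latter with a median of 2.82 and a single library (animal 5) at 14.0 TPM. Parotid was lowest, at 0.252 ± 0.0906 TPM, and its values lay below all those of the other tissues apart from the submandibular gland of animal 4 (0.347 TPM). Pancreas and submandibular gland overlapped and cannot be placed in order.

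**Figure D1:**
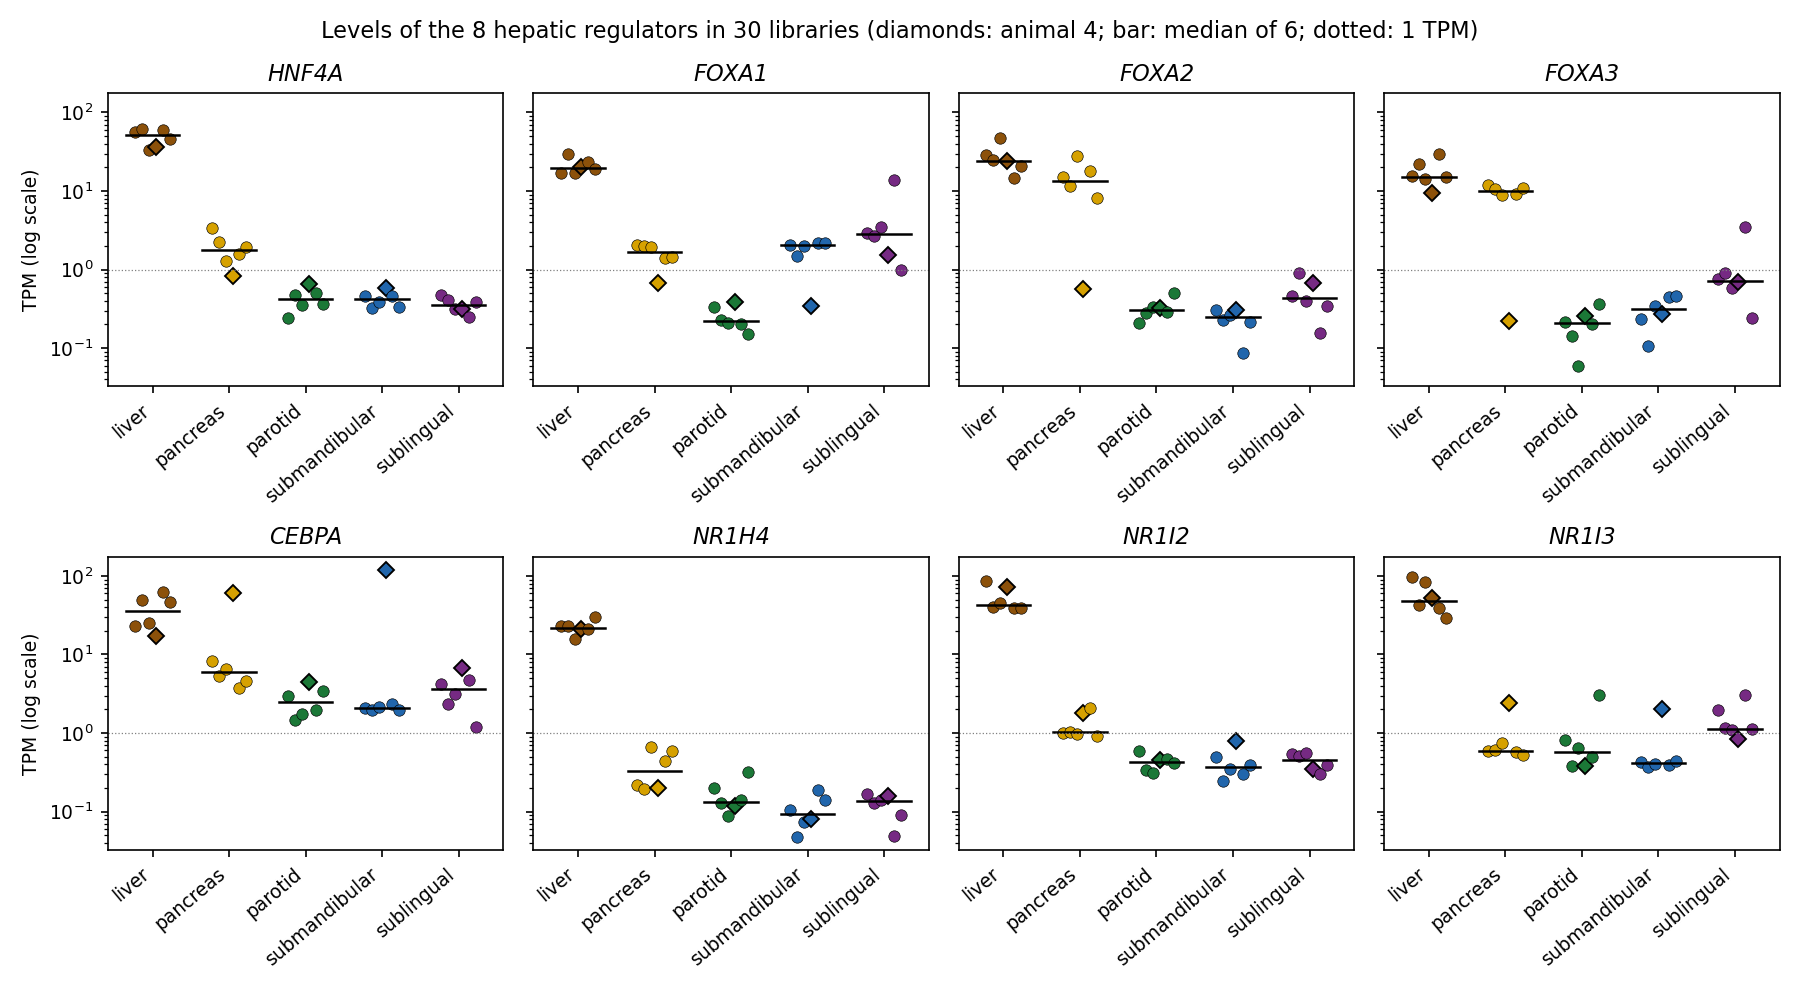
TPM of each of the 8 genes on a log axis, 1 panel per gene, with tissues along the horizontal axis, 1 point per library, a bar at the median of 6 and diamonds for animal 4. Liver is the highest tissue for all genes by median, FOXA2 and FOXA3 lie between 8.26 and 28.1 TPM in 5 pancreas libraries, and the diamonds of CEBPA at 61.4 and 117.9 TPM stand above the other pancreas and submandibular libraries.

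The composition of the FOXA family was compared as the share of each gene in their sum. FOXA1 made up 32.5% ± 6.65 (SD, n = 6) of the summed FOXA level in liver, with FOXA2 at 40.7% ± 13.3 and FOXA3 at 26.8% ± 9.41. In pancreas the FOXA1 share was 7.09, 8.33, 5.01, 46.3, 4.81 and 6.93% in animals 1 to 6, so that 5 libraries lay far below every liver library (21.5 to 38.8%) and animal 4 above them. In the submandibular gland FOXA1 was 71.9% ± 17.0 of the sum and in the sublingual gland 67.2% ± 10.7, of sums of only 2.26 ± 0.744 and 5.87 ± 5.86 TPM. The log2 ratio of FOXA1 to FOXA2 was higher in liver than in pancreas by 2.25 ± 1.59 (SD of the 6 within-animal differences), in 5 of 6 animals, and an exact permutation test by sign flips, two-sided, gave p = 0.0625 (0.0938 adjusted over 3 ratios). For FOXA1 to FOXA3 the difference was 2.19 ± 1.37, in 5 of 6 animals, with the same exact p of 0.0625 and adjusted value of 0.0938. For FOXA2 to FOXA3 it was -0.06 ± 0.99, with an exact p of 1. The smallest p that 6 animals allow is 0.03125. Without animal 4 the first and second differences were 2.81 ± 0.914 and 2.73 ± 0.362 in 5 of 5 animals, and the exact p of 0.0625 is then the smallest possible. Such ratios do not change with the scaling of a library, and they were chosen after the values had been seen.

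**Figure D2:**
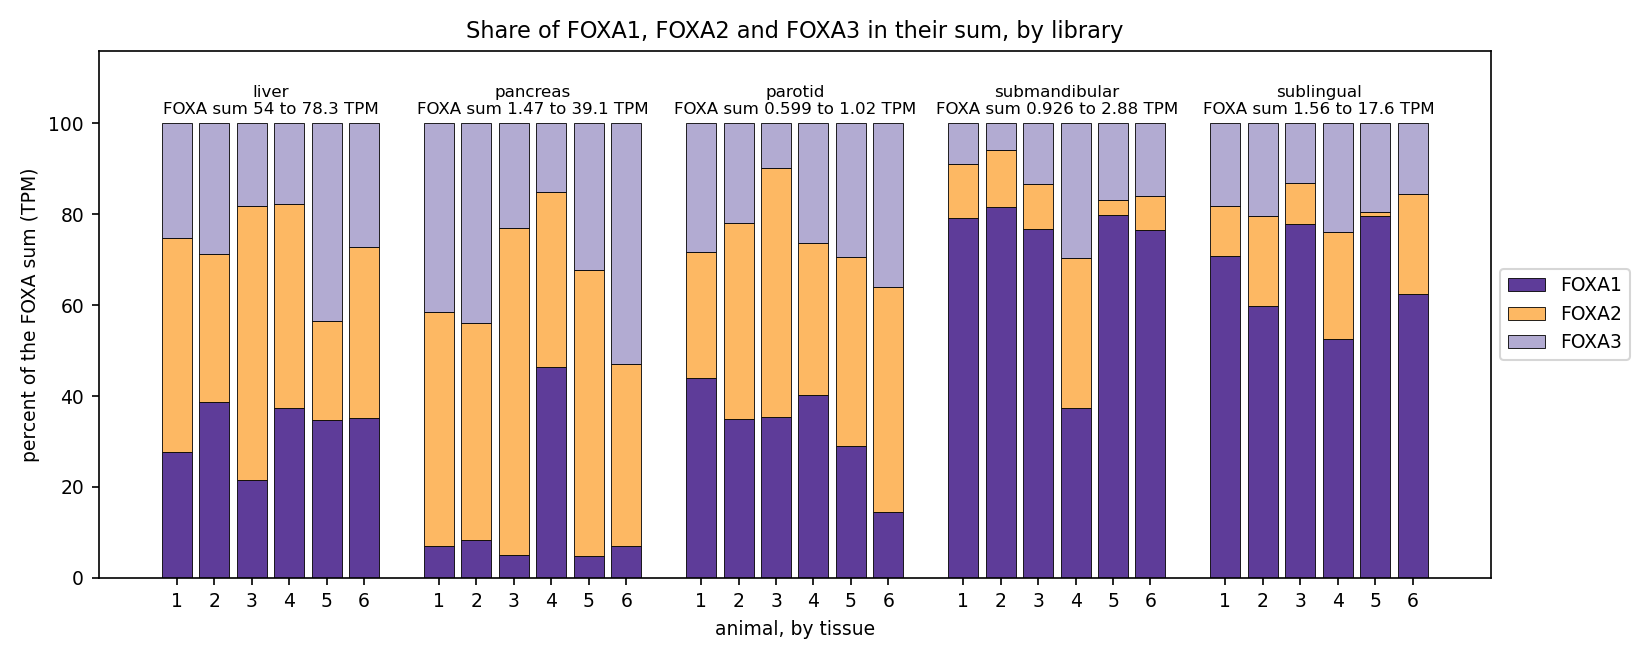
Percent of the summed TPM of FOXA1, FOXA2 and FOXA3 contributed by each, as stacked bars from 0, for animals 1 to 6 in each tissue, with the range of the sums above. FOXA1 takes 4.81 to 8.33% in 5 pancreas libraries and 46.3% in that of animal 4, against 21.5 to 38.8% in liver.

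HNF4A was a liver gene with a small pancreatic level. It was at 56.5, 61.1, 33.0, 36.1, 60.6 and 45.4 TPM in the liver of animals 1 to 6. In pancreas it was at 3.37, 2.23, 1.29, 0.828, 1.60 and 1.96 TPM. All glands together ranged from 0.239 to 0.659 TPM. The 3 ranges did not overlap, and even the pancreas library of animal 4, the lowest of its tissue, was above the highest gland library. The 3 glands could not be ordered, since their means of 0.433, 0.422 and 0.359 TPM lay within each other's spread (SD 0.146, 0.0978 and 0.0834).

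CEBPA was the only member with at least 1 TPM in all 30 libraries. Its liver levels were 23.2, 49.1, 25.1, 17.0, 62.9 and 46.0 TPM. In pancreas it was at 8.21, 5.35, 6.58, 61.4, 3.69 and 4.58 TPM, and in the submandibular gland at 2.08, 1.97, 2.13, 117.9, 2.32 and 1.95 TPM. The pancreas and submandibular values of animal 4 thus exceeded most liver values, while the other 5 libraries of each tissue lay below every liver library. The sublingual gland was at 3.74 ± 1.96 TPM and the parotid at 2.68 ± 1.18 TPM (SD, n = 6), which overlapped. Without the 2 libraries of animal 4 the pancreas mean was 5.68 ± 1.77 TPM (n = 5) in place of 14.97 ± 22.8 (n = 6), and the submandibular mean 2.09 ± 0.152 in place of 21.4 ± 47.3.

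In those 2 libraries genes of the fat cell were high as well. PPARG, the adipocyte partner of CEBPA, was at 122 TPM in the pancreas of animal 4 (0.624 to 18.6 TPM elsewhere in pancreas), and at 106 TPM in its submandibular gland against 0.441 to 1.31 TPM. ADIPOQ, which encodes adiponectin, was at 328 and 438 TPM in the 2 libraries. The fat markers did not order the remaining libraries in the same way: the pancreas of animal 3 had the next highest adipocyte median, 68.0 TPM, with 6.58 TPM of CEBPA, while liver had high CEBPA at adipocyte medians of 3.11 to 10.5 TPM. The part of fat cells in the CEBPA levels was not tested.

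**Figure D3:**
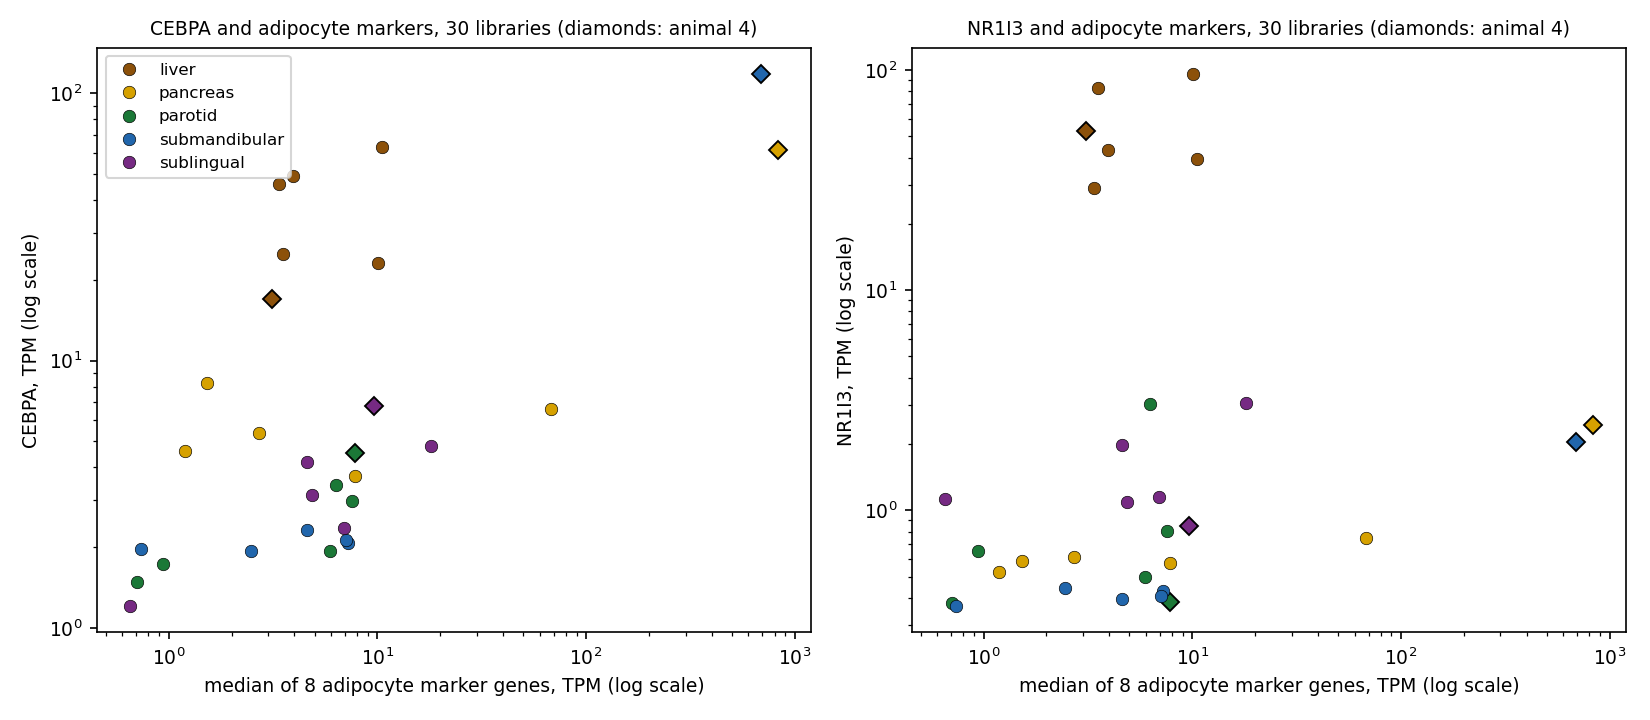
CEBPA (left) and NR1I3 (right) in TPM against the median TPM of 8 adipocyte marker genes, both axes logarithmic, 1 point per library, coloured by tissue, with diamonds for animal 4. Its pancreas and submandibular libraries lie at adipocyte medians of 834 and 687 TPM with CEBPA at 61.4 and 117.9 TPM, and the 6 liver libraries hold 17.0 to 62.9 TPM of CEBPA at medians of 3.11 to 10.5 TPM.

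The 3 nuclear receptors were concentrated in liver. NR1H4, the bile acid receptor, was at 22.1 ± 4.55 TPM there (lowest 15.6, median 21.8, highest 29.7) and reached 1 TPM in none of the 24 other libraries. Its pancreas values ran from 0.196 to 0.671 TPM, and its gland values from 0.0480 to 0.318 TPM. The pancreas range overlapped that of the parotid and lay just above those of the other glands.

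NR1I2, the pregnane X receptor, was at 86.2, 40.2, 44.6, 71.7, 38.6 and 38.5 TPM in the livers of animals 1 to 6. In pancreas it was at 0.991, 1.04, 0.973, 1.79, 2.07 and 0.920 TPM. The glands held 0.249 to 0.798 TPM. Pancreas was thus low but above every gland library, and its lowest and highest values came from animals 6 and 5.

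NR1I3, the constitutive androstane receptor, had the highest liver mean of the 8 genes, 57.1 ± 26.2 TPM, with values of 95.5, 43.1, 82.6, 52.6, 39.5 and 29.0 TPM in animals 1 to 6. In pancreas it was at 0.586, 0.611, 0.749, 2.43, 0.576 and 0.525 TPM, and in the sublingual gland at 1.99, 1.15, 1.09, 0.847, 3.06 and 1.13 TPM. The sublingual values were above those of 5 of the 6 pancreas libraries. Single high values also occurred in the submandibular gland of animal 4 (2.04 TPM, others 0.368 to 0.444) and in the parotid of animal 6 (3.03 TPM, others 0.379 to 0.804). The parotid of animal 6 and the sublingual gland of animal 5 had the highest medians of 8 skeletal muscle genes, 9305 and 2243 TPM, and the 2 libraries of animal 4 the highest adipocyte medians. The part of muscle or fat in these NR1I3 levels was not tested.

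The order of the members in liver, by mean, was NR1I3, NR1I2, HNF4A, CEBPA, FOXA2, NR1H4, FOXA1 and FOXA3, from 57.1 to 17.5 TPM. Each neighbouring pair in that order overlapped. In pancreas the order was CEBPA, FOXA2, FOXA3, HNF4A, FOXA1, NR1I2, NR1I3 and NR1H4, from 14.97 to 0.386 TPM. Without the library of animal 4 FOXA2 (16.2 ± 7.64 TPM) and FOXA3 (10.4 ± 1.25 TPM) led, CEBPA (5.68 ± 1.77 TPM) came next, and the other 5 genes lay at or below 2.09 TPM.

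The tests used limma on log2(TPM + 1) over all 30 libraries, with tissue and animal in the model. A difference on this scale understates the change of genes at low TPM. All 8 genes were among the 13550 tested, which required at least 1 TPM in at least 6 libraries. FOXA1, FOXA3, CEBPA and NR1I3 reached this outside liver, while HNF4A, FOXA2, NR1H4 and NR1I2 passed only with the help of their liver libraries, so a difference from the other tissues was built into their selection.

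Between liver and pancreas all 8 members were higher in liver at an adjusted p below 0.05, where 23.6% of all genes tested were higher. The set was named for liver, and HNF4A, FOXA2, NR1H4 and NR1I2 passed the filter only with their liver libraries. The share called is thus no independent test of the set. The median log2 fold change was 3.57 over the members and 0.36 over all genes. The 5 largest log2 differences were those of NR1I3 at 4.87 (SE 0.322, limma adjusted p = 1.3e-12), NR1I2 at 4.51 (SE 0.202, 2.8e-16), HNF4A at 4.13 (SE 0.203, 2.1e-15), NR1H4 at 4.05 (SE 0.154, 1.3e-17) and FOXA1 at 3.09 (SE 0.305, 5.2e-09). The liver and pancreas values of these 5 genes did not overlap in any library.

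The other 3 differences were smaller. CEBPA differed by 1.87 (SE 0.583, limma adjusted p = 0.0157), FOXA2 by 1.27 (SE 0.396, 0.0159) and FOXA3 by 1.16 (SE 0.362, 0.0152). Without the pancreas and submandibular libraries of animal 4 CEBPA differed by 2.38 (adjusted p = 3.5e-06), FOXA2 by 0.70 (0.0196) and FOXA3 by 0.69 (0.0217). FOXA2 and FOXA3 depended on the scaling of the libraries. A single enzyme gene, PRSS1, had 38260 to 96200 TPM in 5 pancreas libraries. After trimmed-mean scaling, which moved the median over all genes from 0.36 to 0.04, FOXA2 differed by 0.72 (adjusted p = 0.179) and FOXA3 by 0.59 (0.209). With that scaling and without the 2 libraries of animal 4 the differences were 0.12 (0.655) and 0.10 (0.748). The other 6 members were higher in liver under these 4 settings. With 1 whole animal left out, CEBPA no longer passed without animal 2, 3, 5 or 6 (0.0968, 0.0510, 0.110 and 0.0780), FOXA2 without animal 2 (0.0543) and FOXA3 without animal 5 (0.0587).

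**Figure D4:**
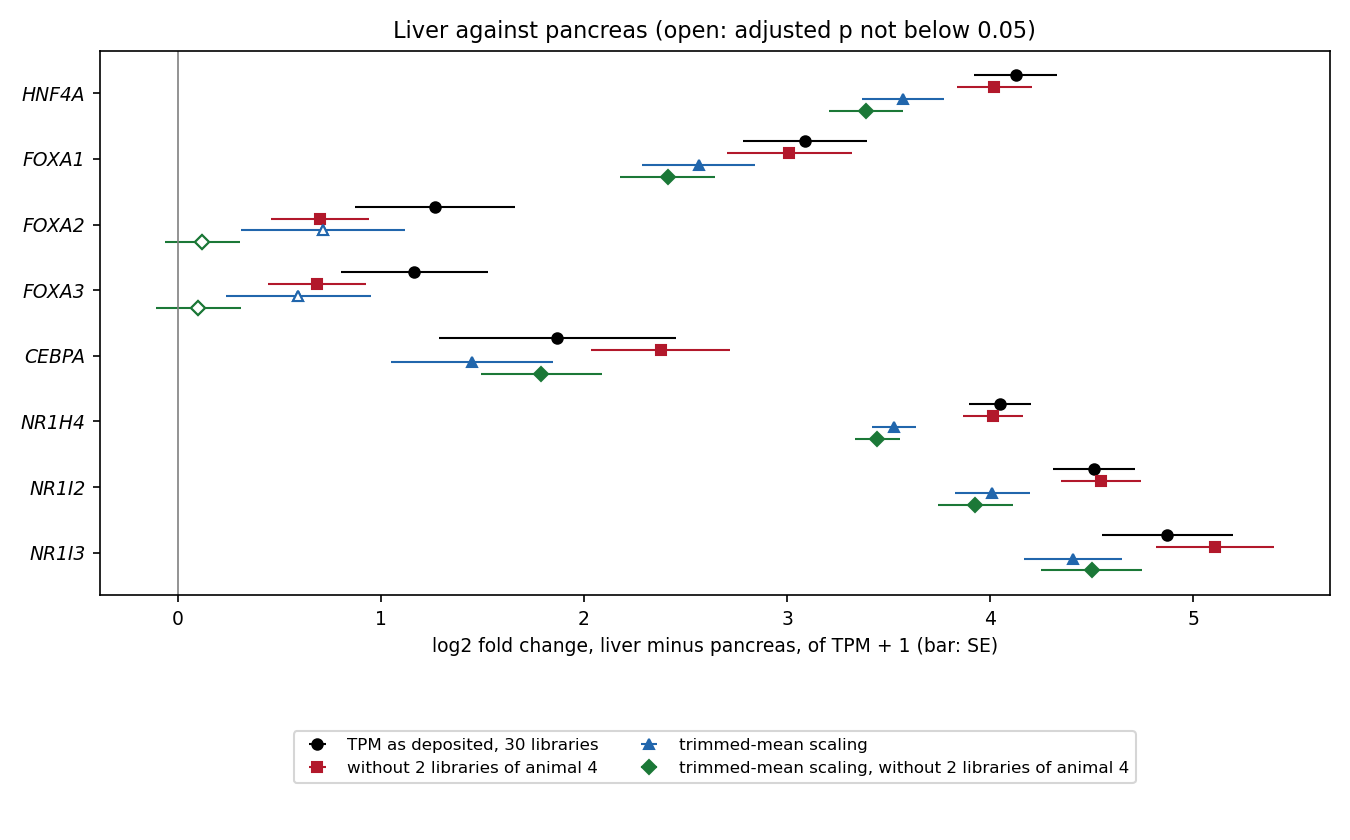
Log2 fold change of TPM + 1, liver minus pancreas, with its SE, for the 8 genes under 4 settings (values as deposited, without the pancreas and submandibular libraries of animal 4, with trimmed-mean scaling, and with both). Open symbols did not pass an adjusted p of 0.05, which holds for FOXA2 and FOXA3 in both settings with scaling, where their differences shrink to 0.12 and 0.10 without animal 4.

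Against each salivary gland all 8 members were again higher in liver, with the same limit from their selection. Of all genes, 53.4% were higher in liver than in parotid, 45.1% than in the submandibular gland and 18.7% than in the sublingual gland. The member medians were 4.30, 4.38 and 4.24, beside 0.84, 0.70 and 0.10 over all genes. The smallest member differences were those of FOXA1 against the sublingual gland, 2.39 (SE 0.305, limma adjusted p = 4.7e-07), and of CEBPA against the submandibular gland, 2.61 (SE 0.583, 0.00067), the latter 3.45 without the 2 libraries of animal 4.

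Between pancreas and the glands the members separated. Against parotid, 5 were higher in pancreas, HNF4A, FOXA1, FOXA2, FOXA3 and NR1I2, where 13.6% of all genes were higher. Against the submandibular gland (7.46% of all genes) and the sublingual gland (3.51%) 4 were higher, the same genes without FOXA1. By limma, 0 members were lower in pancreas after adjustment, and 1 at an unadjusted p below 0.05, FOXA1 against the sublingual gland (-0.70, adjusted p = 0.138). FOXA2 had the largest differences, 3.04, 3.14 and 2.88 against parotid, submandibular and sublingual (limma adjusted p = 3.7e-06, 3.3e-06 and 6.5e-06), and FOXA3 followed with 2.70, 2.58 and 2.03 (adjusted p = 5.6e-06, 1.5e-05 and 0.00020).

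HNF4A was 0.96, 0.97 and 1.03 higher in pancreas on the log2 scale (limma adjusted p = 0.0015, 0.0018 and 0.00062), in 6 of 6 animals each time. NR1I2 was 0.66, 0.67 and 0.65 higher (adjusted p = 0.0263, 0.0326 and 0.0307), also in 6 of 6 animals. The NR1I2 calls against parotid and the submandibular gland were lost after trimmed-mean scaling (adjusted p = 0.180 and 0.0836), and leaving out single animals ended calls against each gland. FOXA1 exceeded parotid by 1.02 (SE 0.305, adjusted p = 0.0235), a call lost without animal 1, 2 or 3 (0.0830, 0.0934 and 0.132).

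CEBPA did not pass against any gland on the values as deposited (limma adjusted p = 0.0926, 0.460 and 0.233). It did against the sublingual gland after each of the 3 rescalings, by 1.31 with trimmed-mean scaling, 1.36 with quantile normalization and 1.87 with libraries scaled to their total without the top 100 genes (limma adjusted p = 0.0206, 0.00899 and 0.0019). Against parotid it passed when only the 12 libraries of that pair were fitted (0.0399). Without the pancreas and submandibular libraries of animal 4 it was 1.08 higher in pancreas than in the submandibular gland (adjusted p = 0.0242), and all 5 pancreas libraries then lay above all 5 submandibular ones. NR1H4 and NR1I3 did not pass against any gland on the values as deposited. For NR1H4 the differences were 0.24, 0.31 and 0.29 (adjusted p = 0.259, 0.215 and 0.237), at levels where the added 1 TPM dominates the scale. Against the sublingual gland NR1H4 passed after the same 3 rescalings, by 0.31, 0.32 and 0.88 (limma adjusted p = 0.0397, 0.0244 and 0.00496), so that 6 of the 8 members were then higher in pancreas. With 0.1 TPM added in place of 1 it passed against the submandibular and sublingual glands (1.16 and 1.04, limma adjusted p = 0.0168 and 0.0303). Among the glands only FOXA1 passed, with a log2 difference of -1.72 of parotid from the sublingual gland (limma adjusted p = 0.00019), where 40.6% of all genes were lower. No member passed between parotid and the submandibular gland (0.347% of all genes in either direction) or between the submandibular and sublingual glands (27.9%), and 1 in each of these pairs, FOXA1, had an unadjusted limma p below 0.05. FOXA1 differed between parotid and the submandibular gland by -1.06 (limma adjusted p = 0.273), and by -1.36 after trimmed-mean scaling (0.0154). Without the 2 libraries of animal 4 FOXA3 differed from the sublingual gland by -0.67 in parotid and -0.60 in the submandibular gland (limma adjusted p = 0.0149 and 0.0321), and NR1I3 by -0.85 in the submandibular gland (0.0143).

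Sharing by liver and pancreas was described by 3 measures. At least 1 TPM in at least 5 of 6 libraries of both tissues was found for 5 of 8 members, HNF4A, FOXA1, FOXA2, FOXA3 and CEBPA. Calls above all 3 glands in both tissues were found for 4, HNF4A, FOXA2, FOXA3 and NR1I2, and for 1.3% of all genes tested. For HNF4A, FOXA2 and NR1I2 the liver part of this measure was built in, since they passed the filter only with their liver libraries. The third measure set the pancreas mean, as a percent of the liver mean, against the same percent for 18 hepatocyte genes such as albumin, fibrinogens and apolipoproteins, whose median in pancreas was 0.943% and whose highest was 1.95% (TDO2, tryptophan dioxygenase). In all, 6 members were above that limit. The same measure was met by 8 members in parotid and 7 in the submandibular gland, where the highest hepatocyte gene stood at 0.722 and 0.738%. It was met by 0 in the sublingual gland, where the highest stood at 24.1%, so the measure did not set pancreas apart. That sublingual limit came from ARG1 alone, at 176 ± 324 TPM. FOXA1, FOXA2, FOXA3, CEBPA and NR1I3 had only this 1 hepatocyte gene above them there. In pancreas FOXA2, FOXA3 and CEBPA stood at 51.0, 49.5 and 40.2%, FOXA1 at 7.56%, HNF4A at 3.85% and NR1I2 at 2.44%.

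HNF4A, FOXA2 and FOXA3 met all 3 measures, FOXA1, CEBPA and NR1I2 met 2, and NR1H4 and NR1I3 met none. Without the library of animal 4 FOXA2 and FOXA3 stood at 60.8 and 59.1% and CEBPA at 15.3% of liver. NR1I2 was then at 2.25%, close to the reference limit of 2.19%. With all libraries, NR1H4 at 1.75% and NR1I3 at 1.60% lay between the median and the limit of the hepatocyte genes. Of those genes only TDO2 stood above them. In parotid the hepatocyte genes stood at a median of 0.630% of liver and HNF4A, NR1H4 and NR1I2 at 0.887, 0.747 and 0.804%, each above the highest of them. Abundant genes of the other tissues had low levels in liver too. PRSS1 was at 590 ± 329 TPM in liver and 67170 ± 38850 in pancreas. SMR3B was at 3573 ± 734 TPM in liver and 94710 ± 78940 in parotid. The source of these low levels of tissue genes outside their own tissue was not tested, nor whether the low member levels outside liver share it.

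**Figure D5:**
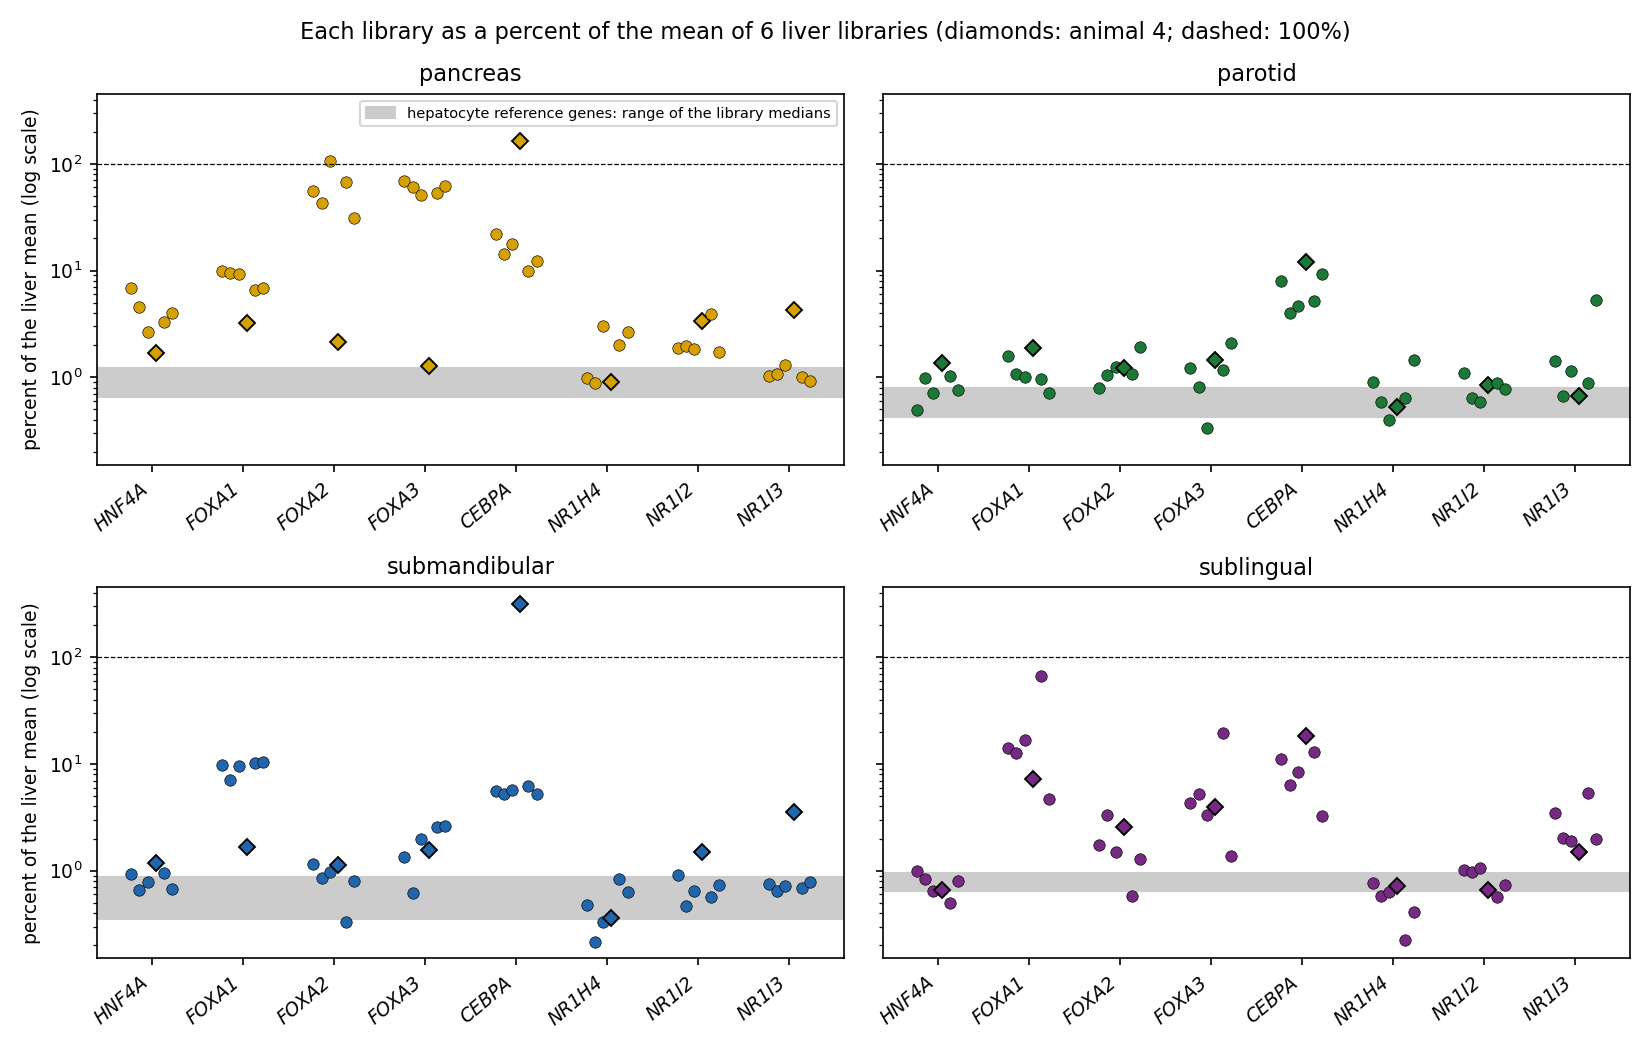
Each library of the 4 other tissues as a percent of the mean of the 6 liver libraries, log axis, 1 point per library and gene, with diamonds for animal 4 and a grey band for the range of the library medians of 18 hepatocyte genes. FOXA2 and FOXA3 stand far above the band in 5 pancreas libraries, whereas the gland means of NR1H4, NR1I2 and HNF4A lie between 0.478 and 0.887%.

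The genes whose levels were most like those of each member were found by Pearson's r of log2(TPM + 1) over the 30 libraries, given as a description, since the libraries share tissues and animals. For FOXA2 they included ONECUT1, a liver and pancreas homeobox factor (r = 0.993), and MAT1A, which makes S-adenosylmethionine (0.987). ONECUT1 was at 19.2 TPM in the pancreas of animal 3 and at 0.691 TPM in that of animal 4, the same extremes as FOXA2. FOXA3 was most like CBS, an enzyme of homocysteine breakdown (0.971), FZD5 (0.968) and PRRT1B (0.965).

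NR1H4 was most like the coagulation genes F11 (0.995) and KLKB1 (0.994) and like AFP (0.994), NR1I2 like PRODH2 (0.994), ABCB4 (0.992) and FTCD (0.991), and NR1I3 like SHBG (0.983), NAGS (0.979) and KIF17 (0.978). Genes most like HNF4A included TFR2 (0.989) and ART4 (0.988). CEBPA had lower values, with SCARB1, the HDL receptor, first (0.958), then RAB32 (0.958) and FADS1 (0.952), and FOXA1 the lowest, with EBF4 (0.938), PRRG4 (0.935) and APOF (0.933). Among the members themselves r was 0.985 for NR1H4 with NR1I2 and 0.943 for FOXA2 with FOXA3, but 0.658 for FOXA1 with FOXA2.

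Factors that work beside the members were examined next. Of 28 tested partner factors of the liver network, 19 were higher in liver than in pancreas and 1 was lower, where 23.6% of all genes were higher, with a median log2 fold change of 1.81. Higher in pancreas than in all 3 glands were 10 of them, beside 2.89% of all genes tested, among which were ONECUT1, PROX1, NR5A2, HNF4G, NR0B2, GATA4, GATA6 and MLXIPL. MLXIPL, the carbohydrate response factor, was at 28.0 ± 29.4 TPM in pancreas against 289 ± 142 in liver (log2 difference 3.81, limma adjusted p = 6.6e-06). The pancreas of animal 4 had 66.9 TPM of it and the other 5 had 20.3 ± 25.0 TPM (SD, n = 5). CREB3L3, a liver and gut factor of lipid metabolism, was at 128 ± 29.2 TPM in liver and 0.911 ± 0.170 in pancreas. Some partner factors, such as PROX1 and ESR1, had means below 1 TPM in every tissue but liver. Their passing of the filter rested on liver, so their liver calls were partly built in.

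Of 21 pancreatic transcription factors, a list that includes FOXA2, 11 passed the filter, and of these 6 were lower and 2 higher in liver than in pancreas. PDX1 passed only with its pancreas libraries, at 1.02 to 22.4 TPM, and had at most 0.269 TPM in any other library. ISL1 had means of at most 0.207 TPM outside pancreas. The lower calls of PDX1 and ISL1 were thus built in, and neither was tested without the 2 libraries of animal 4. Of all 13550 genes tested, 916 were lower and 3198 higher. PTF1A, the acinar master factor, was not among the tested genes. It was at 39.5 ± 21.0 TPM in pancreas, with 0.609 TPM in animal 4 and 47.2 ± 9.84 TPM in the other 5 libraries, and at 0.395 ± 0.262 TPM in liver. RBPJL, a subunit of the acinar PTF1 complex, was at 721 ± 526 TPM in pancreas and 5.67 ± 1.06 in liver (-5.95, limma adjusted p = 2.6e-08). NR5A2 and GATA4, factors of both organs, did not pass between liver and pancreas, at 6.56 ± 2.02 against 10.4 ± 5.08 TPM (adjusted p = 0.442) and 5.83 ± 1.71 against 6.71 ± 4.38 TPM (0.835). Without the 2 libraries of animal 4, whose pancreas held 0.757 TPM of NR5A2 and 0.273 TPM of GATA4, NR5A2 was lower in liver by a log2 difference of -0.82 (limma adjusted p = 0.00028), while GATA4 did not pass (-0.31, 0.166). FOXA2 was among the 2 that were higher in liver.

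Most of the tested genes linked to the receptors were higher in liver, and control by the receptors was not tested. ABCB11 and CYP7A1, for example, stayed below 1 TPM in every library outside liver and passed the filter only with their liver libraries. The shares called are thus no independent test of these lists. Of 14 tested bile acid genes linked to NR1H4, 13 were higher in liver than in pancreas (median log2 fold change 4.41), where 23.6% of all genes were higher. In pancreas 3 were above all glands, NR0B2, FGFR4 and KLB, beside 2.89% of all genes. KLB did not pass between liver and pancreas, at 1.04 ± 0.670 against 1.78 ± 0.731 TPM (limma adjusted p = 0.116). Without the 2 libraries of animal 4 KLB was lower in liver by a log2 difference of -0.48 (limma adjusted p = 0.0268). FGFR4, the hepatic receptor for FGF19, was at 61.9 ± 13.0 TPM in liver, 6.62 ± 4.73 in pancreas and 0.583 ± 0.307 in parotid. Of 18 clearance genes linked to NR1I2 and NR1I3, 16 were higher in liver than in pancreas (median 4.98), beside the same 23.6% of all genes. In pancreas 4 of the 18 were above all glands, CYP2C8, GSTA1, GSTA2 and ABCC3, beside 2.89% of all genes. ABCC3 did not pass between liver and pancreas, at 16.8 ± 8.81 against 10.6 ± 6.44 TPM (limma adjusted p = 0.297). CYP3A4, the main drug oxidase of the liver, was at 1096 ± 618 TPM there and 12.8 ± 7.73 in pancreas, and CYP2C8, a related oxidase, had 38.6 ± 31.4 TPM in pancreas against 784 ± 318 in liver and 5.14 ± 1.61 in parotid (2.39 above parotid, limma adjusted p = 1.7e-05).

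All 18 tested classical targets of HNF4A, CEBPA and FOXA were higher in liver than in pancreas, with a median of 5.56, where 23.6% of all genes were higher. The list was chosen for liver, and some of its genes, such as F9, had means below 1 TPM in every other tissue. This count is thus no independent test either. Higher in pancreas than in parotid were 5 of the 18 targets on the values as deposited, beside 13.6% of all genes, and 2 after trimmed-mean scaling. The 5 were TTR, TM4SF4, APOA1, APOC3 and TDO2. In pancreas 2 of the 18, TTR and TM4SF4, were above all glands, beside 2.89% of all genes. TTR, the transthyretin gene that islets also express, was at 11360 ± 2049 TPM in liver, 1341 ± 1547 in pancreas and 69.2 ± 14.2 in parotid. Albumin, by contrast, was at 304 ± 92.3 TPM in pancreas and 181 ± 61.1 in parotid (adjusted p = 0.0842 by limma), beside 28770 ± 13860 in liver. Without the 2 libraries of animal 4 the counts between liver and pancreas were 21 higher and 2 lower of 28 partner factors, 2 and 5 of 9 pancreatic factors, 13 and 1 of 14 bile acid genes, 16 and 0 of 18 clearance genes and 18 and 0 of 18 targets. More of all genes were also called in this comparison without these libraries, as given in the last section.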

How the data were processed

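The authors deposited TPM values for 21292 gene names in 30 libraries, 1 table of the whole series. Per the submitters' processing notes, FastQC, MultiQC, cutadapt, HISAT2, kallisto, SAMtools, featureCounts and DESeq2 were used. Versions, transcriptome and genome build are not given in the sources used here. Library columns summed to between 999998 and 1000001, so depth and counting error are unknown, and TPM are shares in which abundant genes lower all others. Unused columns numbered 0.

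Values were analysed as log2(TPM + 1), a pseudocount of 1, with limma 3.58.1 in R 4.3.3 (moderated two-sided tests with a mean trend, tissue and animal as terms). The 13550 genes that reached 1 TPM in 6 or more libraries were tested, with Benjamini-Hochberg adjustment within each of 10 tissue pairs and a threshold of 0.05. Animal is a term because the labels give the same animals in all tissues. Deviations from the tissue means correlated at 0.161 within an animal and at -0.0186 between animals in this check of the pairing, and the fit with no replicate block called 8 of 8 members between liver and pancreas. On data simulated for liver against pancreas with 13550 genes, 26% of log2 changes of 1 and 82% of changes of 2 were recovered, and 5.26% of the calls were false. The simulation had independent normal noise, no animal effect and changes in liver alone, in a small part of the genes. The data differ in each of these, so the simulated rates are not the error rates of the calls reported here.

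The genes described are the 8 members, the 3 most correlated genes of each, and the up to 4 most abundant genes per list in pancreas and in liver. Some genes that this rule selects are not reported here. Other list genes that are named were chosen after their values were seen. Members and lists were chosen with earlier results of these data known. The alternatives were other scalings, filters, pseudocounts, subsets and a minimum log2 change of 1. The FOXA ratios, the scaling combined with leaving out 2 libraries, and the list counts without those libraries are additions made once values were known. The RefSeq genes of T2T-MMU8v2.0 include all 8 names. Python 3.11.15 and pandas 2.3.3 were used for the rest.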

Additional observations from a re-analysis of the deposited data

Results flagged for a closer look

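In 40 sets of 6 libraries (8 genes in 5 tissues), 8 held a highest or lowest library whose gap to the nearest other exceeded Dixon's 95% critical share of the range, where chance gives about 2. Of the 8, 6 were in libraries of animal 4. In its pancreas FOXA3 was lowest at 0.223 TPM (next 8.999), CEBPA highest at 61.4 TPM (next 8.21) and NR1I3 highest at 2.43 TPM (next 0.749). In its submandibular gland FOXA1 was lowest at 0.347 TPM (next 1.495), CEBPA highest at 117.9 TPM (next 2.32) and NR1I3 highest at 2.04 TPM (next 0.444). The other 2 were FOXA3 at 3.45 TPM in the sublingual gland of animal 5 and NR1I3 at 3.03 TPM in the parotid of animal 6.

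In 2 of 80 comparisons of the sexes all 4 females moved one way and both males the other. For FOXA2 in parotid against sublingual the females' mean difference was -0.32 and the males' 0.16 (log2), a gap of -0.48. For NR1H4 in submandibular against sublingual they were -0.09 and 0.12, a gap of -0.22. Neither difference was tested.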

How the results depend on the processing

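The liver calls of HNF4A, FOXA1, NR1I2 and NR1I3 against pancreas held under every alternative run, and so did that of NR1H4 wherever it was tested: with 1 animal left out it reached 1 TPM in 5 libraries only and was not tested. With the fit that has no replicate block, 8 of 8 members were called between liver and pancreas, and no count of members moved by over 1.5 times. Of the members, a minimum log2 change of 1 left 3 higher in pancreas than in parotid and 2 than in the submandibular gland. Between pancreas and sublingual 6 passed with each of the 3 scalings, CEBPA and NR1H4 joining the 4. Between parotid and sublingual 2 members passed with only the 12 libraries compared, with a pseudocount of 0.1 and without the pancreas and submandibular libraries of animal 4, and 4 when libraries were scaled to their total without the top 100 genes. Between parotid and submandibular 1 passed with each scaling (trimmed-mean, quantile, without the top 100, trimmed-mean without the 2 libraries of animal 4) and with the pseudocount of 0.1. Between submandibular and sublingual 2 passed without the top 100 and 2 without the libraries of animal 4. With 1 animal left out the members called ranged from 5 to 7 for liver against pancreas, from 3 to 6 for pancreas against parotid, from 1 to 2 for parotid against sublingual and from 0 to 2 for submandibular against sublingual. Differences of NR1I3 and FOXA1 that did not pass changed sign. NR1I3 in pancreas against parotid went from 0.02 to -0.35, -0.38 and -0.51 (trimmed-mean, quantile, without the top 100), to -0.22 without the libraries of animal 4 and to -0.42 with trimmed-mean scaling as well. NR1I3 in pancreas against submandibular went in the same order to -0.0089, -0.0525 and -0.12, and to -0.0604 with trimmed-mean scaling and without animal 4. NR1I3 in parotid against sublingual went to 0.0709, 0.094, 0.36 and 0.0462, and FOXA1 in submandibular against sublingual to 0.12, 0.12, 0.49 and 0.42. With 1 animal left out NR1I3 ranged from -0.24 to 0.30 for pancreas against parotid and from -0.0911 to 0.43 for parotid against submandibular, FOXA1 from -0.11 to 0.033 for pancreas against submandibular, and the log2 ratio of FOXA2 to FOXA3 from -0.25 to 0.32. Counts over all genes moved more. Without the 2 libraries of animal 4 they went from 4114 to 6487 for liver against pancreas, from 1887 to 4436 for pancreas against sublingual, from 1316 to 3944 for pancreas against submandibular, from 47 to 78 for parotid against submandibular and from 3787 to 8859 for submandibular against sublingual. With trimmed-mean scaling, quantile normalization, without the top 100 and with trimmed-mean scaling and without animal 4 they were 2890, 3143, 3210 and 3500 for pancreas against sublingual, 2178, 2493, 2071 and 2996 for pancreas against submandibular, and 2376, 2459, 3500 and 2928 for parotid against sublingual. For parotid against submandibular they were 97, 103 and 196, and for submandibular against sublingual 1995, 2247 and 2440, the scaling without the top 100 left aside. With only the 12 libraries compared they were 1049 for pancreas against sublingual, 2582 for pancreas against submandibular, 0 for parotid against submandibular (limma, with 632 at an unadjusted p below 0.05) and 666 for submandibular against sublingual. A filter of 5 TPM, which tests fewer genes, gave 2726 for liver against sublingual, 1183 for pancreas against sublingual and 29 for parotid against submandibular. With 1 animal left out they ranged from 2594 to 6198 for liver against pancreas, 907 to 2697 for pancreas against parotid, 1032 to 4067 for pancreas against sublingual, 583 to 3919 for pancreas against submandibular, 2815 to 8039 for parotid against sublingual, 5 to 87 for parotid against submandibular and 1251 to 8531 for submandibular against sublingual. Of all genes, 3198 were higher and 916 lower in liver than in pancreas as deposited, 2928 and 2064 after trimmed-mean scaling, 2475 and 2907 after quantile normalization, and 1860 and 3324 with totals taken without the top 100 genes, so which direction held more calls depended on the scaling. Elsewhere the cause was not tested. With TPM alone, counting error at levels near 1 TPM is unknown.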
